A study of Mus musculus with 16 samples.

Results

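Transcripts of 8 CXC chemokine family genes were followed across sorted myeloid cells after knee ligament surgery. They are the ligands Cxcl1, Cxcl2, Cxcl3, Cxcl9, Cxcl10 and Cxcl16 and the receptors Cxcr2 and Cxcr4. The members are the rows with these gene symbols in a count table of 20200 genes. Each of the 8 passed the filter on low values that left 11998 genes for testing. The filter kept a gene with a group mean of 3 CPM or more in any of the 8 groups, CPM being the count scaled to a common library total. Cxcl2 and Cxcr4 reached it in all 8 groups and Cxcl9 in 2 of them, both on day 14, so that Cxcl9 could only pass by being high there.

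The cells came from 12-week-old male wild-type C57BL/6 mice that had undergone anterior cruciate ligament reconstruction (ACLR), in which the cut knee ligament is replaced by a tendon graft passed through tunnels drilled in femur and tibia. Tissue around the graft in the tunnels, the interface tissue, was digested with enzymes. Live CD45+ cells without lineage markers were flow-sorted on day 1 and day 14 after surgery into 4 populations. All were CD11b+, and they comprised CD9+ macrophages (Ly6G-, F4/80+, CD9+), CX3CR1+ macrophages (Ly6G-, F4/80+, CX3CR1+, CD9-), F4/80- myeloid cells (Ly6G-) and Ly6G+ neutrophils. There were 2 RNA-seq libraries per population and day and 16 in all. Cells of 5 to 7 mice were pooled for a library. The rare cells with both CD9 and CX3CR1 fell into the CD9+ sort, and no unoperated group was analysed here. All mice were operated and none carried an altered gene.

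CXC chemokines are small secreted proteins that guide leukocytes through receptors coupled to G proteins. Cxcl1, Cxcl2 and Cxcl3 signal through Cxcr2 and are known for drawing neutrophils into injured tissue. Macrophages and neutrophils themselves make them when inflammatory signals reach them. Cxcl9 and Cxcl10 are induced by interferons and attract T cells and NK cells through CXCR3. Cxcl16 is made as a membrane-bound protein that is cut off by the protease Adam10 and is recognised by CXCR6. Cxcr4 is the receptor for Cxcl12, which holds neutrophils and progenitors in bone marrow.

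On mouse genome build mm10, Cxcl3 (90786103 to 90789600), Cxcl1 (90891241 to 90893115) and Cxcl2 (90903871 to 90905938) lie in this order on the plus strand of chromosome 5, with 101640 bases, which hold Cxcl15, between Cxcl3 and Cxcl1 and 10755 between Cxcl1 and Cxcl2. Cxcl9 (92321347 to 92328079) and Cxcl10 (92346638 to 92348889) lie 18558 bases apart on the minus strand of the same chromosome. Cxcl16 is on chromosome 11 (70453983 to 70459984), and Cxcr2 (74153989 to 74161246) and Cxcr4 (128588199 to 128592293) are on chromosome 1. Their identifiers in the table are ENSMUSG00000029380 (Cxcl1), ENSMUSG00000058427 (Cxcl2), ENSMUSG00000029379 (Cxcl3), ENSMUSG00000029417 (Cxcl9), ENSMUSG00000034855 (Cxcl10), ENSMUSG00000018920 (Cxcl16), ENSMUSG00000026180 (Cxcr2) and ENSMUSG00000045382 (Cxcr4). All 8 are protein-coding, and the counts cover the exons of each gene.

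Promoter sequences are shown for the ligands that moved together or that sit side by side, because the stretches just before their starts carry letters they share. RefSeq windows of build GRCm38.p6 (250 bases before to 50 after each start) were found for 7 of the 8 genes. The letters GGAATTTCC, the type of site bound by NF-kappaB, were searched on both strands and occurred in 104 of 32851 promoter windows (0.317%). Among these were the windows of Cxcl1, Cxcl2 and Cxcl3, on the gene's own strand, and that of Cxcl10. In the window of Cxcl10 the letters are on the other strand, and the gene's own strand reads GGAAATTCC there. The letters GAAANNGAA, a spacing found in elements bound by interferon regulatory factors, occurred in 2812 windows (8.56%), including those of Cxcl9 and Cxcl10. No hit of one motif overlapped a hit of the other. Such a match describes the letters and is not a site shown to be used. Each stretch is written 5′ to 3′ on the strand of its gene, and capitals mark the searched letters.
Cxcl1: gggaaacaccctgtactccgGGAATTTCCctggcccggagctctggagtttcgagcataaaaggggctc
Cxcl2: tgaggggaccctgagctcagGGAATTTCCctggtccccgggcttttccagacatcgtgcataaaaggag
Cxcl3: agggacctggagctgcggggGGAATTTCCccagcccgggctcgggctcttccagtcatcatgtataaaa
Cxcl9: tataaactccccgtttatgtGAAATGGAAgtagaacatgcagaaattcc
Cxcl10: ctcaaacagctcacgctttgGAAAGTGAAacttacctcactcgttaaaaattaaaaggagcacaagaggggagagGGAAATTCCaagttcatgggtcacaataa
The stretches run over chr5:90891155-90891223 (Cxcl1, plus strand), chr5:90903783-90903851 (Cxcl2, plus), chr5:90786009-90786077 (Cxcl3, plus), chr5:92328226-92328274 (Cxcl9, minus) and chr5:92349019-92349122 (Cxcl10, minus). The capitals start 70 bases before the RefSeq start of Cxcl1, 96 before that of Cxcl2 and 72 before that of Cxcl3. In each of the 3 a run of the letters ataaaa follows closer to the start.

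The libraries held 9233952 to 19814119 counts each. Of the 8 pairs of replicates, the CD9+ macrophages of day 1 were the least alike (r = 0.935 across genes, against 0.976 to 0.988). The members' changes over time in CD9+ macrophages are therefore also given without each of these libraries. The sorted populations were not free of transcripts of other cells. The 9 neutrophil markers summed to 52238 to 114660 CPM in the 4 neutrophil libraries, 32886 to 43332 in F4/80- cells, 5659 to 20432 in CD9+ macrophages and 502 to 1085 in CX3CR1+ macrophages. None of the 9 was at 0 counts in any of the 16. The 5 eosinophil markers summed to 503 and 566 CPM in CD9+ macrophages on day 1 and to 5841 and 9416 on day 14. They lay between 16.9 and 115.9 in every other library. The 9 macrophage and monocyte markers summed to 2067 and 2781 CPM in CD9+ macrophages on day 1 and to 1202 and 1794 on day 14. They summed to 2870 to 3624 in CX3CR1+ macrophages and 450 to 512 in F4/80- cells. In neutrophils they summed to 520 and 530 on day 1 but 153 and 162 on day 14. In bulk samples, fewer cells of a type and less RNA per cell cannot be told apart. The part of these transcripts in each result below was not tested except where a value is given.

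The ligands of Cxcr2 were higher on day 1 than on day 14 in every population. Cxcl1, Cxcl2 and Cxcl3 were called lower on day 14 in all 4 populations, 12 of 12 tests, by the thresholds given below. By the same thresholds 2.24% to 10.9% of all genes tested were called lower, depending on the population. In the 12 tests the 2 libraries of day 1 did not overlap with those of day 14. Such a gap does not by itself mark a called change, as Cxcr4 also had it in all 4 populations and was not called. How many of all genes had it was not counted. Neutrophils had the most Cxcl2 and Cxcl3 on day 1. CD9+ macrophages had the highest mean of Cxcl1, though not called different from neutrophils on day 1. They alone had over 5 CPM of it on day 14. Together the 3 genes took 0.602% and 1.13% of all counts in the neutrophil libraries of day 1, 0.136% and 0.183% in those of CD9+ macrophages, and at most 0.0368% in any library of day 14.

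Cxcl2 stood at 6759.7 and 12274 CPM in the neutrophil libraries of day 1 (replicates 1 and 2), at 835 and 1280.1 in CD9+ macrophages, at 312 and 487 in CX3CR1+ macrophages and at 92.8 and 140.9 in F4/80- cells. On day 14 it stood at 464 and 451 in neutrophils, 132 and 238 in CD9+ macrophages, 38.6 and 38.2 in CX3CR1+ macrophages and 10.6 and 11.1 in F4/80- cells. The order of the 4 populations was thus the same on both days, and no neighbours in it overlapped. A difference is called here when the quasi-likelihood test of edgeR gave an adjusted p (Benjamini-Hochberg, over the 11998 genes) below 0.05 and the log2 fold change was 1 or more in size. The log2 fold change of day 14 over day 1 was −4.38 ± 0.36 in neutrophils (20.8-fold lower, ± the standard error implied by the test, adjusted p = 4.61e-07), −3.38 ± 0.35 in CX3CR1+ macrophages (10.4-fold, adjusted p = 1.63e-05), −3.43 ± 0.36 in F4/80- cells (10.8-fold, adjusted p = 5.48e-05) and −2.52 ± 0.33 in CD9+ macrophages (5.72-fold, adjusted p = 0.000165). In CD9+ macrophages it was −2.79 without replicate 1 of day 1 and −2.18 without replicate 2, both called. The difference in change between neutrophils and CD9+ macrophages was −1.86 ± 0.45 (adjusted p = 0.0152, edgeR interaction term). This call was lost with only the compared libraries (−1.82, adjusted p = 0.0729), without neutrophil replicate 2 of day 1 (−1.37, adjusted p = 0.0701), without either neutrophil library of day 14 (−1.89 and −1.84, adjusted p = 0.0523 and 0.067) and without CD9+ replicate 2 of day 14 (−1.35, adjusted p = 0.0909).

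All 6 pairs of populations differed in Cxcl2 on both days. On day 1 CD9+ macrophages stood at −3.17 ± 0.34 on the log2 scale against neutrophils (9.0-fold lower, adjusted p = 1.02e-06). They stood at 1.40 ± 0.32 against CX3CR1+ macrophages (2.65-fold higher, adjusted p = 0.00768), which became 1.10 (adjusted p = 0.106) without CX3CR1+ replicate 1. On day 14 the corresponding folds were 2.47 (adjusted p = 0.00209) and 4.81 (adjusted p = 0.000125). Scaled by library size only, the day 14 difference between CD9+ macrophages and neutrophils was −0.82 and not called, and without CD9+ replicate 1 it was −0.92.

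Cxcl3 had a larger fitted fall than Cxcl2 in each population. On day 1 it stood at 1230.5 and 2420 CPM in neutrophils, 488 and 716 in CD9+ macrophages, 81.4 and 152.0 in CX3CR1+ macrophages and 47.5 and 79.2 in F4/80- cells. On day 14 it was at 17.6 and 34.0 CPM in CD9+ macrophages, 6.12 and 7.08 in neutrophils, 0.362 and 1.22 in F4/80- cells and 0.174 and 0.278 in CX3CR1+ macrophages, the last resting on 2 and 3 counts. CD9+ macrophages had thus passed neutrophils, by 1.96 ± 0.46 on the log2 scale (3.89-fold, adjusted p = 0.00156), where on day 1 they were 3.03-fold lower (adjusted p = 0.00137). They exceeded CX3CR1+ macrophages 5.16-fold on day 1 (2.37 ± 0.38, adjusted p = 0.000604).

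The log2 fold change of Cxcl3 over time was −8.11 ± 0.52 in neutrophils (275-fold lower, adjusted p = 4.01e-08), −6.35 ± 0.59 in F4/80- cells (81.4-fold, adjusted p = 1.54e-05) and −4.54 ± 0.43 in CD9+ macrophages (23.3-fold, adjusted p = 1.02e-05). In CD9+ macrophages it was −4.80 without replicate 1 of day 1 and −4.24 without replicate 2, both called. In F4/80- cells it was −5.68 without replicate 1 of day 14 and −7.40 without replicate 2, both called. In CX3CR1+ macrophages the levels differed 507-fold, with a 95% exact interval of 217 to 1563 that covers counting error only (adjusted p of the edgeR test 1.54e-06). The change in neutrophils differed from that in CD9+ macrophages by −3.56 ± 0.59 (adjusted p = 0.00139), and it was called in every fit run. The change in CX3CR1+ macrophages differed from it by −4.42 ± 1.00 (adjusted p = 0.0253). That call was lost without CX3CR1+ replicate 1 or 2 of day 14 (−4.15 and −4.79, adjusted p = 0.161 and 0.13), without CX3CR1+ replicate 2 of day 1 (−3.92, adjusted p = 0.0692) and without CD9+ replicate 2 of day 14 (−3.88, adjusted p = 0.083).

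Within a library the ratio of Cxcl2 to Cxcl3 counts needs no scaling between libraries. On day 1 it was 1.71 and 1.79 in CD9+ macrophages, 1.95 and 1.78 in F4/80- cells, 3.84 and 3.20 in CX3CR1+ macrophages and 5.49 and 5.07 in neutrophils. On day 14 it was 7.50 and 6.99, 29.2 and 9.13, 222 and 138, and 75.8 and 63.7 in the same order. Both day 14 libraries were above both day 1 libraries in all 4 populations. The smallest two-sided p that an exact permutation test of 2 against 2 libraries can give is 0.333. The annotated transcripts of the pair share a run of 157 identical bases. In addition, 61 of the 967 stretches of 50 bases (6.31%) in the coding transcript of Cxcl3 recur in that of Cxcl2. How reads falling there were counted is not given in the sources used here, so that the ratio is uncertain to that extent. Cxcl1 shares no stretch of 50 bases with either.

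**Figure D1:**
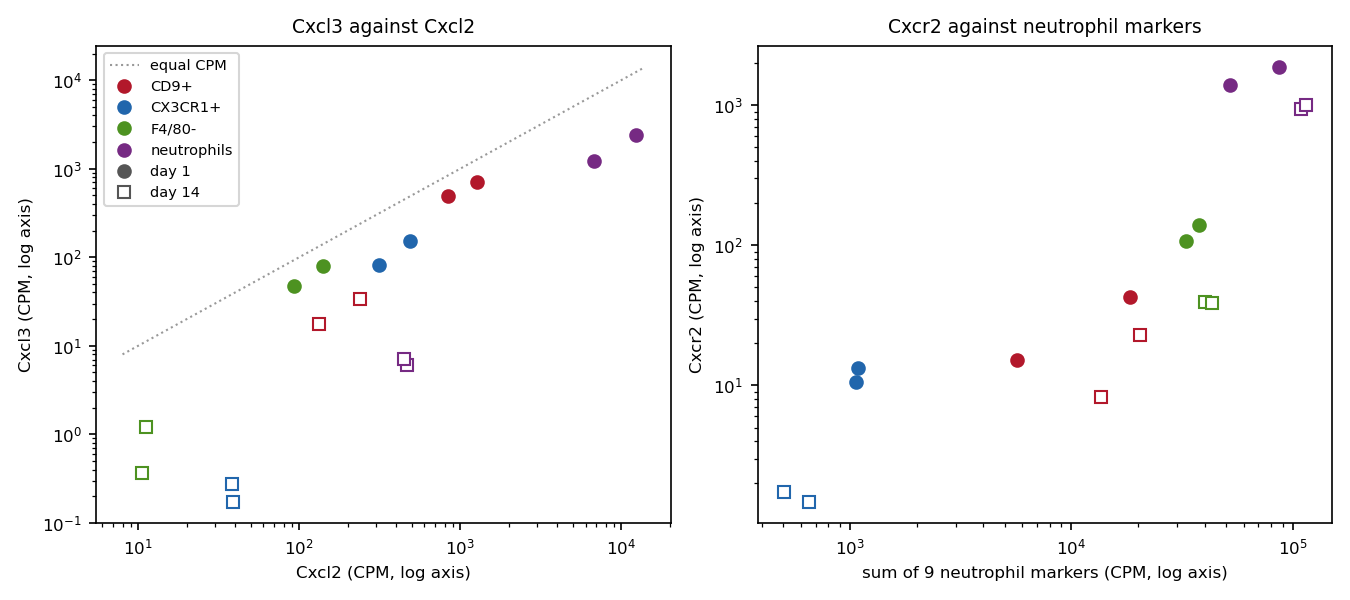
Left, Cxcl3 against Cxcl2 in CPM for each of the 16 libraries on log axes, with a dotted line of equal CPM. The day 1 libraries (filled circles) lie below the line at Cxcl2 to Cxcl3 count ratios of 1.71 to 5.49, and the day 14 libraries (open squares) lie further below it at ratios of 6.99 to 222. Right, Cxcr2 against the sum of 9 neutrophil markers in CPM for the same libraries on log axes, where neutrophils are highest on both and the mean Cxcr2 of each population is higher on day 1 than on day 14.

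Per kilobase of coding transcript, Cxcl1 had the lowest day 1 mean of the 3 ligands in every population. Its day 1 values were 25.1 and 41.9 CPM in CD9+ macrophages, 8.97 and 26.5 in neutrophils, 2.89 and 7.71 in CX3CR1+ macrophages and 1.80 and 3.97 in F4/80- cells. CD9+ macrophages overlapped with neutrophils (difference 0.92 ± 0.56 on the log2 scale, adjusted p = 0.155). That difference was called with a replicate block (1.07, adjusted p = 0.0147) and without neutrophil replicate 2 of day 1 (1.90, adjusted p = 0.0283). They exceeded CX3CR1+ macrophages by 2.66 ± 0.59 (6.33-fold, adjusted p = 0.0072), a call lost without CX3CR1+ replicate 1 (2.09, adjusted p = 0.0899). On day 14 it stood at 5.84 and 8.39 CPM in CD9+ macrophages, at 0.174 and 0.833 in CX3CR1+ macrophages, at 0.600 and 0.205 in neutrophils and at 0 counts in both libraries of F4/80- cells. The log2 fold change was −5.47 ± 0.85 in neutrophils (44.4-fold lower, adjusted p = 0.000267), −3.39 ± 0.80 in CX3CR1+ macrophages (10.5-fold, adjusted p = 0.0127) and −2.23 ± 0.59 in CD9+ macrophages (4.7-fold, adjusted p = 0.019). In F4/80- cells the day 1 level was at least 12.5-fold higher than 3 counts in each day 14 library (adjusted p of the edgeR test 0.00784). In neutrophils the change was −4.49 without replicate 2 of day 1, −6.06 without replicate 1 of day 1, −6.37 without replicate 1 of day 14 and −4.86 without replicate 2 of day 14, all called. In CX3CR1+ macrophages it was −4.85 (adjusted p = 0.0425) without replicate 2 of day 14. In CD9+ macrophages it was −2.56 (adjusted p = 0.00797) without replicate 1 of day 1. The call in CD9+ macrophages was lost without replicate 2 of day 1 (−1.82) and without replicate 1 or 2 of day 14 (−1.97 and −2.51). It was lost in CX3CR1+ macrophages without replicate 2 of day 1 (−2.53) or replicate 1 of day 14 (−2.66), and in F4/80- cells without either library of day 14. The adjusted p in these fits lay between 0.069 and 0.156.

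On day 14 CD9+ macrophages exceeded neutrophils in Cxcl1 by 4.16 ± 0.88 on the log2 scale (17.8-fold, adjusted p = 0.000767) and CX3CR1+ macrophages by 3.82 ± 0.81 (14.1-fold, adjusted p = 0.00275). Their level was at least 30.8-fold above 3 counts in each F4/80- library. The change of Cxcl1 over time was not called different from that in CD9+ macrophages in any population. The adjusted p of the interaction term was 0.639 in CX3CR1+ macrophages, 0.194 in F4/80- cells and 0.069 in neutrophils. DESeq2 called the last 2 (adjusted p = 0.0333 and 0.0143), as did a replicate block (adjusted p = 0.0489 and 0.0123). In CD9+ macrophages of day 1, replicate 1 had 18436 CPM of the neutrophil markers and replicate 2 had 5659, and replicate 2 had the higher Cxcl1, Cxcl2 and Cxcl3. The part of neutrophil transcripts in these levels was not tested. To set the 3 ligands side by side, day 1 means in neutrophils were 8582 CPM per kilobase for Cxcl2, 1796 for Cxcl3 and 18.6 for Cxcl1 by the length of the coding transcript. They were 4602, 522 and 9.46 by the length of all annotated exons, which hold retained introns. The order was the same by both lengths.

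**Figure D2:**
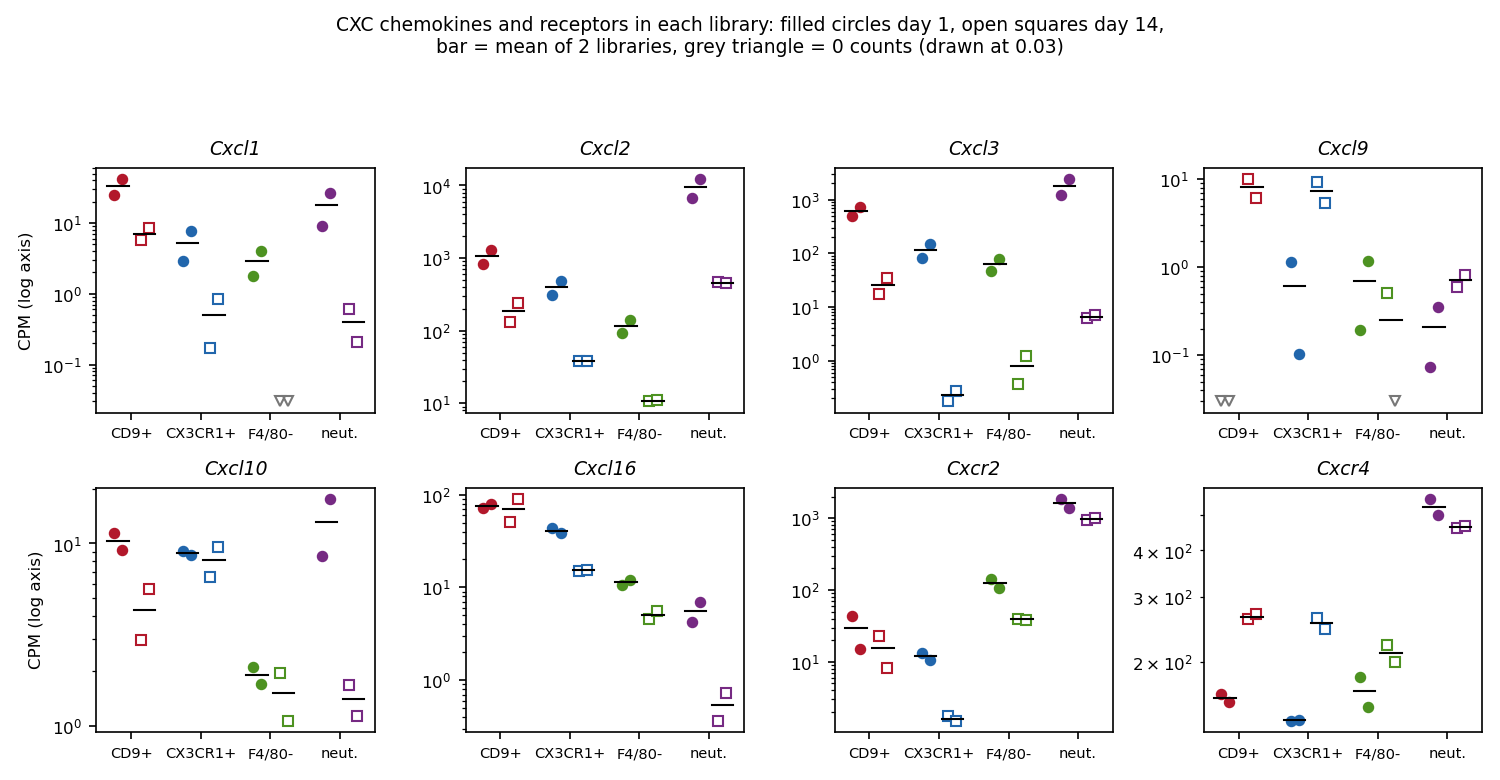
CPM of each of the 8 genes on log axes in the 16 libraries, by population along the x axis, with filled circles for day 1, open squares for day 14, bars for the mean of 2 libraries and grey triangles for libraries with 0 counts. Cxcl1, Cxcl2 and Cxcl3 drop in every population, Cxcl9 is at 5.37 to 10.04 CPM in both macrophage populations on day 14, and Cxcr4 stays between 138 and 552 CPM throughout.

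**Figure D3:**
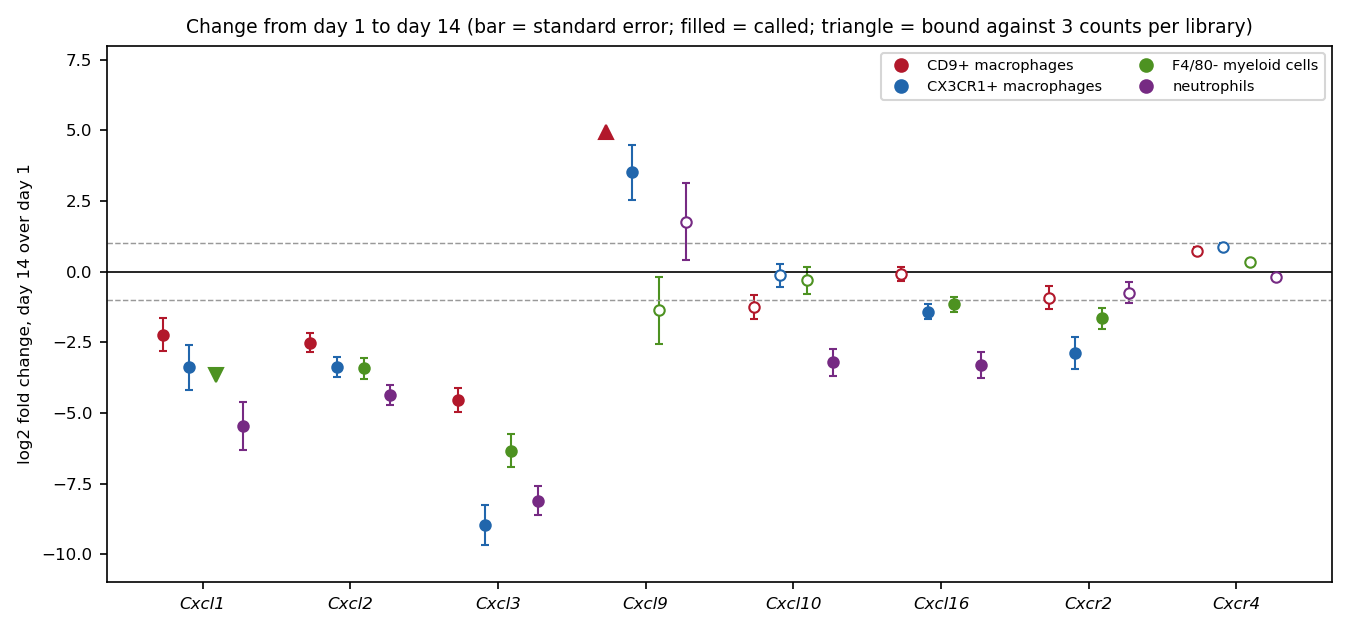
Log2 fold change of day 14 over day 1 for each gene (x axis) and population (colour), with bars for the standard error, filled symbols for called changes, dashed lines at a fold change of 2 and triangles for the bound against 3 counts per library where a group was at 0 counts. Called falls reach from Cxcl16 in F4/80- cells (−1.16) to Cxcl3 in CX3CR1+ macrophages (−8.97, on 2 and 3 counts), and the 2 called rises are those of Cxcl9.

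Among the interferon-induced ligands, Cxcl9 rose in both macrophage populations and Cxcl10 was called in neither. Cxcl9 passed the filter only through the day 14 groups of these populations, so that the direction of its change there was set by the filter. Cxcl9 had 0 counts in both CD9+ libraries of day 1 and 10.04 and 6.06 CPM on day 14 (105 and 60 counts), at least 30.6-fold above 3 counts per library (adjusted p = 0.00286). Without replicate 1 or 2 of day 1 the adjusted p was 0.00839 and 0.0104. In CX3CR1+ macrophages it went from 1.14 and 0.104 CPM to 9.29 and 5.37, by 3.51 ± 0.98 on the log2 scale (11.4-fold, adjusted p = 0.03). Without CX3CR1+ replicate 1 of day 1 it was 6.02 (adjusted p = 0.0295). The call was lost without CX3CR1+ replicate 2 of day 1 (2.67, adjusted p = 0.184) and without either library of day 14 (3.05, adjusted p = 0.157, and 3.85, adjusted p = 0.0729), and also with a replicate block (3.37, adjusted p = 0.0517).

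F4/80- cells had 0.194 and 1.19 CPM of Cxcl9 on day 1 and 0.507 and 0 on day 14. Neutrophils had 0.0747 and 0.350 on day 1 and 0.600 and 0.821 on day 14. Each of these rested on at most 26 counts. On day 14 CD9+ and CX3CR1+ macrophages overlapped (log2 difference 0.14 ± 0.86, adjusted p = 0.935). Cxcl9 passed the filter only through these 2 groups, so that the direction of their differences from the other populations was also set by it. Both macrophage populations exceeded neutrophils, by 3.48 ± 1.04 (11.1-fold, adjusted p = 0.00859) and by 3.34 ± 1.04 (10.1-fold, adjusted p = 0.011). The first call was lost without neutrophil replicate 1 of day 14 (3.28, adjusted p = 0.0602), and the second without CX3CR1+ replicate 1 (2.91, adjusted p = 0.0573) or either neutrophil library (3.15 and 3.59, adjusted p = 0.071 and 0.0562). Both also exceeded F4/80- cells, 29.6-fold (adjusted p = 0.00987) and 26.9-fold (adjusted p = 0.00412), with 7 and 0 counts in the latter. For CD9+ macrophages the call was lost without F4/80- replicate 2 (3.94, adjusted p = 0.116). The 4 T and NK cell markers in the table (of 6 listed) summed to 24.4 and 22.1 CPM in CD9+ and 0.695 and 1.67 in CX3CR1+ macrophages on day 14. In F4/80- cells of day 14 they summed to 31.6 and 26.2 CPM. Only Cd3d and Nkg7 of the 4 passed the filter, and the part of these cells in the Cxcl9 levels was not tested.

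Cxcl10 was at 8.52 and 17.6 CPM in neutrophils on day 1 and 1.68 and 1.13 on day 14, a log2 fold change of −3.22 ± 0.48 (9.3-fold lower, adjusted p = 0.000158, and −2.61 without replicate 2 of day 1, still called). CX3CR1+ macrophages held it at 9.06 and 8.59 CPM on day 1 and 6.51 and 9.62 on day 14, so that the days overlapped (change −0.13 ± 0.40, adjusted p = 0.881). In CD9+ macrophages it went from 11.5 and 9.16 to 2.97 and 5.66 without overlap (−1.26 ± 0.42, adjusted p = 0.0508, and 0.0303 with DESeq2). Without replicate 1 or 2 of day 1 that change was −1.09 (adjusted p = 0.106) and −1.42 (adjusted p = 0.0515). F4/80- cells had 2.09 and 1.69 CPM on day 1 and 1.96 and 1.06 on day 14 (−0.31 ± 0.47, adjusted p = 0.787). Neutrophils were among the populations with the most Cxcl10 on day 1, 6.87-fold above F4/80- cells (adjusted p = 4.27e-05), and on day 14 CX3CR1+ macrophages exceeded them 5.76-fold (adjusted p = 0.000293). Cxcl10 lies within the span of Art3 on the opposite strand, and Art3 itself had 0 to 7 counts per library.

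Cxcl16 was higher in both macrophage populations than in F4/80- cells and neutrophils on both days, and its change over time in CD9+ macrophages was not called. In CD9+ macrophages it stood at 71.5 and 79.3 CPM on day 1 and at 51.2 and 90.1 on day 14, with overlap (change −0.09 ± 0.24, adjusted p = 0.83, and −0.17 or −0.017 without replicate 1 or 2 of day 1). In the other 3 populations it was called lower on day 14, but only neutrophils were called different from CD9+ macrophages in their change. CX3CR1+ macrophages went from 43.4 and 38.5 to 15.2 and 15.4 CPM (log2 fold change −1.42 ± 0.25, 2.67-fold lower, adjusted p = 0.00174). F4/80- cells went from 10.6 and 12.1 to 4.57 and 5.61 (−1.16 ± 0.28, 2.24-fold, adjusted p = 0.0208), a call that no fit without 1 of their 4 libraries kept (adjusted p 0.0789 to 0.212). Neutrophils went from 4.26 and 6.91 to 0.360 and 0.718 (−3.31 ± 0.45, 9.91-fold, adjusted p = 6.92e-05, and −3.91 without replicate 2 of day 14, still called).

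The day 14 value of Cxcl16 in neutrophils rested on 3 and 7 counts. The macrophage markers in neutrophils went from 520 and 530 to 153 and 162 CPM, whose part in the change was not tested. The change in neutrophils differed from that in CD9+ macrophages by −3.22 ± 0.53 (adjusted p = 0.00124), a call that held under every alternative run. For CX3CR1+ against CD9+ macrophages the difference in change was −1.32 ± 0.35 (adjusted p = 0.0555). It passed the threshold with DESeq2 (adjusted p = 0.0164), with scaling by library size only (adjusted p = 0.0241), with the replicate block (adjusted p = 0.0313) and without CD9+ replicate 1 or 2 of day 1 or replicate 1 of day 14 (adjusted p = 0.042, 0.0479 and 0.0144). CD9+ exceeded CX3CR1+ macrophages by 0.88 ± 0.24 on day 1, under the fold threshold (adjusted p = 0.0227), and 4.61-fold on day 14 (2.20 ± 0.26, adjusted p = 1.23e-05). Against neutrophils CD9+ macrophages were 13.6-fold higher on day 1 (adjusted p = 2.98e-08) and 126-fold higher on day 14 (adjusted p = 1.69e-09).

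Cxcr2, the receptor for the first 3 ligands, was highest in neutrophils on both days. It stood at 1863 and 1393 CPM in neutrophils on day 1 and at 937 and 1005 on day 14 (−0.74 ± 0.36 on the log2 scale, adjusted p = 0.144), without overlap. F4/80- cells came next with 140.3 and 106.6 CPM on day 1 and 39.5 and 38.6 on day 14, a log2 fold change of −1.66 ± 0.38 (3.16-fold lower, adjusted p = 0.017) that 3 of the 4 fits without 1 of their libraries did not call (adjusted p 0.152 to 0.159). Neutrophils exceeded F4/80- cells 13.2-fold on day 1 (adjusted p = 1.05e-06) and 24.9-fold on day 14 (adjusted p = 1.89e-07).

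CX3CR1+ macrophages went from 13.3 and 10.6 CPM of Cxcr2 to 1.74 and 1.48, a log2 fold change of −2.89 ± 0.56 (7.42-fold lower, adjusted p = 0.00304), with neutrophil markers at 1085 and 1069 CPM on day 1 and 502 and 657 on day 14. In CD9+ macrophages the 2 libraries of a day stood apart in Cxcr2, with 43.1 and 15.2 CPM on day 1 against 22.8 and 8.29 on day 14. Here the neutrophil markers stood apart in the same direction (18436 and 5659, then 20432 and 13658). The time change in CD9+ macrophages was −0.92 ± 0.41 (adjusted p = 0.135), and it was 0.04 without replicate 1 of day 1, −1.46 without replicate 2 of day 1 (adjusted p = 0.0103) and −1.82 without replicate 1 of day 14 (adjusted p = 0.0364). CD9+ exceeded CX3CR1+ macrophages in Cxcr2 2.46-fold on day 1 (adjusted p = 0.0395), but without CD9+ replicate 1 the log2 difference was 0.33 (adjusted p = 0.571). Likewise DESeq2 (adjusted p = 0.072), scaling by library size only (0.0815), the fit of only these 4 libraries (0.224) and leaving out either CX3CR1+ library (0.12 and 0.222) did not call it. On day 14 the difference was 3.27 ± 0.57 (9.62-fold, adjusted p = 0.00047). Per 1000 CPM of neutrophil markers there were 21.5 and 26.7 CPM of Cxcr2 in neutrophils on day 1 and 8.64 and 8.77 on day 14. The marker sums in neutrophils were 86802 and 52238 CPM on day 1 and 108474 and 114660 on day 14, so that the fall of the ratio is not one of Cxcr2 alone. The ratio was 12.3 and 9.94 then 3.46 and 2.25 in CX3CR1+ macrophages. It was 3.71 and 3.24 then 0.988 and 0.892 in F4/80- cells, and 2.34 and 2.68 then 1.11 and 0.607 in CD9+ macrophages. The part of these transcripts in the Cxcr2 of the 3 sorts without Ly6G was not tested.

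Cxcr4, the receptor for Cxcl12, was over 100 CPM in every library, and none of its changes over time was called. Neutrophils had the most, with 552 and 500 CPM on day 1 and 459.7 and 466 on day 14 (−0.18 ± 0.12, adjusted p = 0.278). It stood at 163 and 155 CPM in CD9+ macrophages on day 1 and at 260.3 and 269 on day 14. It stood at 138 and 139 then 263 and 245 in CX3CR1+ macrophages. These differences over time had small adjusted p (0.000893 and 0.000204) but stayed under the fold threshold, at 0.73 ± 0.12 (1.66-fold) and 0.88 ± 0.12 (1.83-fold). In CD9+ macrophages the change was 0.77 and 0.70 without replicate 1 or 2 of day 1. F4/80- cells had 182 and 151 CPM on day 1 and 222 and 200.1 on day 14 (0.34 ± 0.12, adjusted p = 0.111).

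The 3 populations without Ly6G were not called different from each other in Cxcr4 on either day. Neutrophils exceeded each of them on day 1, by 3.30-fold over CD9+ macrophages (adjusted p = 1.86e-08), 3.80-fold over CX3CR1+ macrophages (adjusted p = 3.89e-09) and 3.16-fold over F4/80- cells (adjusted p = 2.2e-08). On day 14 the log2 differences from neutrophils were −0.81 ± 0.12 in CD9+ and −0.86 ± 0.12 in CX3CR1+ macrophages, under the fold threshold (adjusted p = 2.7e-05 and 1.32e-05), and −1.13 ± 0.12 in F4/80- cells (2.19-fold lower, adjusted p = 9.23e-07). The last was −0.57 and not called when libraries were scaled by size only. In neutrophils of day 1, Cxcr2 stood at 733 CPM per kilobase of coding transcript and Cxcr4 at 291, and on day 14 at 438 and 256.

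Read against all genes tested, the members were called often over time. They were chosen with earlier results of these data known, so that the shares below describe the calls and are no test of them. In CD9+ macrophages 3 of 8 were called lower and 1 higher, where 3.48% of the 11998 genes were called lower and 4.75% higher. In CX3CR1+ macrophages 5 were lower and 1 higher (3.47% and 2.39% of all genes), in F4/80- cells 5 were lower and 0 higher (2.24% and 1.01%), and in neutrophils 5 were lower and 0 higher (10.9% and 3.15%). The 20 called changes of 32 comprised 18 falls and 2 rises. The rises were those of Cxcl9, which passed the filter only through the 2 groups where it was high. The 3 Cxcr2 ligands gave 12 of the falls.

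Between populations on day 1, the count of members called in either direction was 4 of 8 for CD9+ against CX3CR1+ macrophages (8.23% of all genes), 6 for CD9+ macrophages against F4/80- cells (15.4%) and 4 for CX3CR1+ macrophages against F4/80- cells (21.1%). Against neutrophils it was 5 for CD9+ macrophages (49.5%), 6 for CX3CR1+ macrophages (51%) and 7 for F4/80- cells (49%). On day 14 the counts were 5 (14.2%), 7 (7.7%) and 5 (21.5%) among the populations without Ly6G, in the same order, and 7 (49.5%), 6 (48%) and 5 (48.7%) against neutrophils. On that day Cxcl9 is among those called for both macrophage populations against F4/80- cells and against neutrophils, in a direction set by the filter. The change over time differed from that of CD9+ macrophages for 1 member in CX3CR1+ macrophages (Cxcl3, 2.28% of all genes), 1 in F4/80- cells (Cxcl9, 1.69%) and 3 in neutrophils (Cxcl2, Cxcl3 and Cxcl16, 8.03%). These 3 comparisons share the CD9+ libraries.

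Of 15 other CXC family genes listed, 11 were in the table and 8 were tested, and those called over time all fell. Ackr3 reached the filter of 3 CPM only in CD9+ macrophages of day 1 (mean 6.67 CPM). Cxcr1 reached it only in neutrophils of day 1 (mean 10.3 CPM). Both could only pass by being high there, so that the direction of their falls in these populations was set by the filter. In CD9+ macrophages 3 of 8 were called lower and 0 higher, in CX3CR1+ macrophages 4 and 0, in F4/80- cells 1 and 0 and in neutrophils 3 and 0. Of all genes, 3.48%, 3.47%, 2.24% and 10.9% were called lower in the same order. Pf4 and Ppbp, chemokines stored in platelets whose genes lie beside Cxcl3 on chromosome 5, were called lower in both macrophage populations. Pf4 stood at 91.6 and 148 CPM in CD9+ macrophages on day 1 and at 39.5 and 32.7 on day 14, a log2 fold change of −1.73 ± 0.43 (adjusted p = 0.012). In CX3CR1+ macrophages it went from 10.1 and 30.8 CPM to 0.608 and 0.925 (−4.73 ± 0.62, adjusted p = 0.000141). Ppbp went from 27.3 and 43.7 to 1.91 and 1.01 CPM in CD9+ macrophages (−4.59 ± 0.85, adjusted p = 0.00213) and from 3.33 and 13.2 to 0.174 and 0.0925 in CX3CR1+ macrophages (adjusted p = 0.00384). The 4 platelet markers in the table (of 5 listed, neither gene among them) summed to 29.2 and 33.7 CPM in CD9+ macrophages on day 1 and 52.4 and 63.2 on day 14, and to 0.569 to 1.76 in CX3CR1+ macrophages. The sum was highest in F4/80- cells (64.3 to 76.6 CPM), and of the 4 markers only Itga2b passed the filter. The part of platelet transcripts in Pf4 and Ppbp was not tested.

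Ackr3, a receptor that takes up Cxcl12 without signalling through G proteins, was at 3.88 and 9.47 CPM in CD9+ macrophages on day 1 and at 0.287 and 0.606 on day 14 (−3.87 ± 0.83, adjusted p = 0.00688). Cxcl14 was at 9.23 and 14.2 CPM there on day 1 and 2.20 and 3.84 on day 14 (−1.95 ± 0.76, adjusted p = 0.0901). It fell in CX3CR1+ macrophages from 3.76 and 3.23 to 0 and 0.648 (−3.43 ± 0.96, adjusted p = 0.0282). Cxcr1, a receptor related to Cxcr2, was at 9.27 and 11.4 CPM in neutrophils on day 1 and 1.68 and 0.718 on day 14 (−3.11 ± 0.69, adjusted p = 0.00753). It had 0 counts in all 8 macrophage libraries. Cxcr5 fell in neutrophils from 3.29 and 6.30 to 0.600 and 0.205 CPM (−3.58 ± 0.88, adjusted p = 0.00844). Cxcl12, the ligand of Cxcr4, was at 0 to 5.26 CPM in every library and was not called over time. Cxcl15 was not called over time either, and Cxcl5, Cxcl11 and Cxcr3 did not pass the filter. The median log2 change over the 8 tested genes was −1.84 in CD9+ macrophages, −1.71 in CX3CR1+ macrophages, −2.55 in F4/80- cells and −3.10 in neutrophils, beside −0.02 to 0.03 over all genes. These medians include Ackr3 and Cxcr1, so that part of the direction in CD9+ macrophages and neutrophils was set by the filter.

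**Figure D4:**
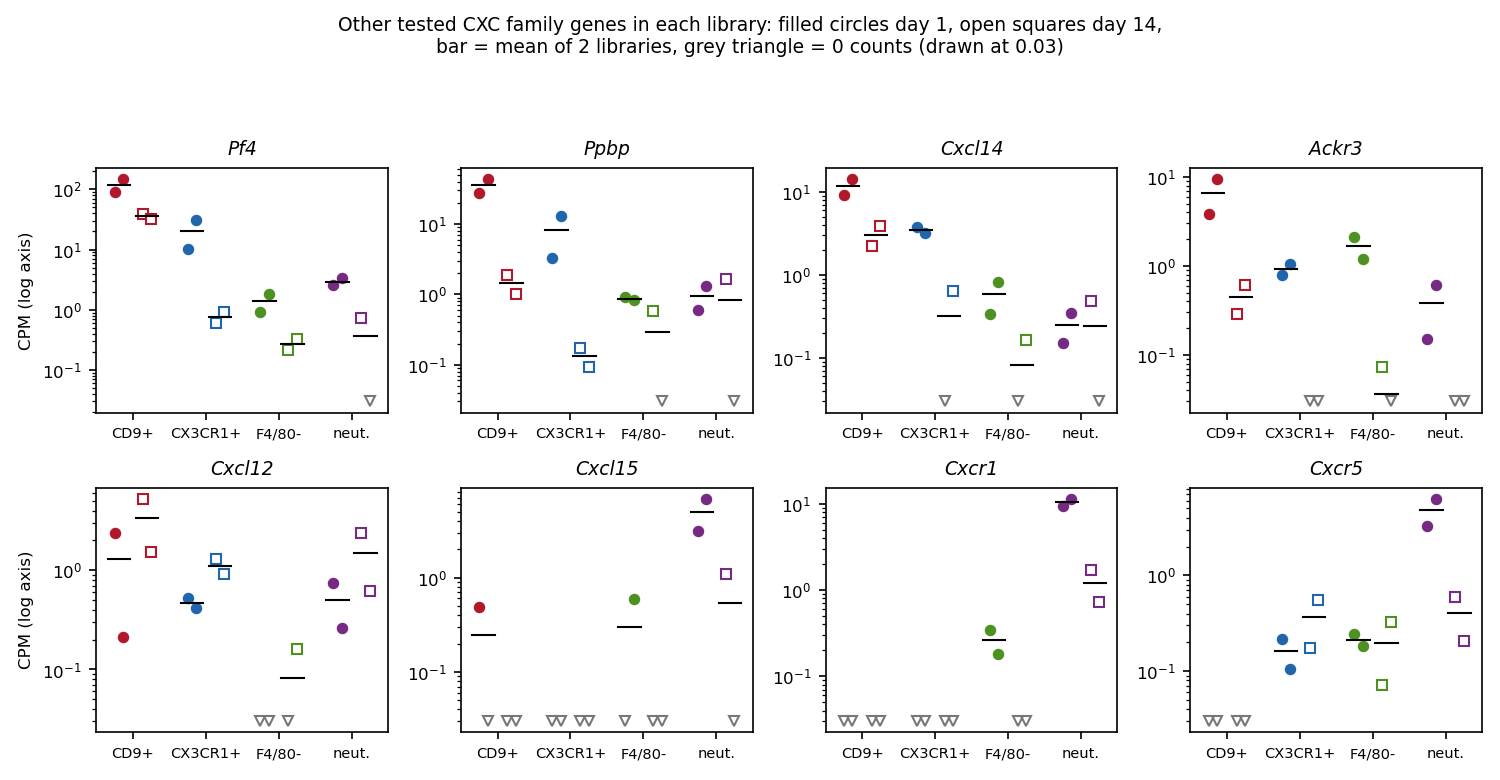
CPM on log axes of the 8 other CXC family genes that were tested, in the 16 libraries by population, with filled circles for day 1, open squares for day 14, bars for means and grey triangles for 0 counts. Pf4 and Ppbp are highest in CD9+ macrophages of day 1 (91.6 to 148 and 27.3 to 43.7 CPM), and Cxcr1 is seen mainly in neutrophils of day 1 (9.27 and 11.4 CPM).

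Of 20 listed genes that process CXC chemokines or carry their signal, 18 were in the table and tested. Over time 1 was called lower in CD9+ macrophages (Grk5), 1 higher in CX3CR1+ macrophages (Dpp4), 0 in F4/80- cells, and 1 higher (Grk3) and 2 lower (Adam17 and Grk5) in neutrophils. Of all genes tested, 3.48% were called lower and 4.75% higher in CD9+ macrophages, 3.47% and 2.39% in CX3CR1+ macrophages, 2.24% and 1.01% in F4/80- cells and 10.9% and 3.15% in neutrophils. Adam17, a protease that sheds membrane proteins, went from a mean of 196 to 66.3 CPM in neutrophils (−1.56 ± 0.17, adjusted p = 8.02e-06). Grk5, a kinase of activated receptors, went from 73.5 to 30.2 CPM in neutrophils (−1.28 ± 0.26, adjusted p = 0.00197) and from 49.0 to 24.0 in CD9+ macrophages (−1.02 ± 0.26, adjusted p = 0.0156). Dpp4, a peptidase that trims Cxcl10 and other chemokines, went from 12.8 to 29.6 CPM in CX3CR1+ macrophages (1.20 ± 0.26, adjusted p = 0.00611). Grk3, another such kinase, went from 4.78 to 10.3 CPM in neutrophils (1.11 ± 0.18, adjusted p = 0.000316). The change of Grk5 in CX3CR1+ macrophages differed from that in CD9+ macrophages (1.57 ± 0.36, adjusted p = 0.0307), and so did that of Zc3h12a, an RNase that degrades inflammatory messenger RNAs, in F4/80- cells (1.32 ± 0.26, adjusted p = 0.0177).

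Against neutrophils, this list was called in each other population as follows. On day 1 the list had 9 genes lower and 2 higher in CD9+ macrophages against neutrophils, 9 and 2 in CX3CR1+ macrophages and 12 and 2 in F4/80- cells. On day 14 it had 10 and 2, 8 and 3, and 12 and 2. Of all genes, 49.5%, 51% and 49% were called in these comparisons on day 1 and 49.5%, 48% and 48.7% on day 14. Higher genes made up 56.2%, 52.8% and 53.9% of those calls on day 1 and 59.8%, 56.5% and 56.2% on day 14. Arrb2, an arrestin that uncouples chemokine receptors, was at a mean of 744 CPM in neutrophils on day 1 against 214 in CD9+ macrophages (CD9+ minus neutrophils −1.80 ± 0.15, adjusted p = 9.83e-08). Rac2, a small GTPase of leukocyte movement, was at 1435 against 354 (−2.02 ± 0.18, adjusted p = 1.53e-07). The genes higher outside neutrophils on both days included Grk3 and Dpp4, Grk3 being at 50.5 CPM in CD9+ macrophages and 4.78 in neutrophils on day 1 (3.40 ± 0.17, adjusted p = 1.29e-09).

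For each member, the 3 tested genes with the most similar levels over the 8 group means are given as a description, by Pearson's r of log2 CPM over 8 groups whose libraries are shared by all genes. They included Spp1 and Pdpn for Cxcl1 (r 0.968 and 0.967) and were Basp1, Ell2 and Egr2 for Cxcl2 (0.982 to 0.969). They were Gm42793, Usp54 and Dynll1 for Cxcl3 (0.975 to 0.94) and Lyz1, Col6a3 and A530017D24Rik for Cxcl9 (0.929 to 0.868). Cxcl10 had Adam17, Glg1 and Tnfrsf12a (0.973 to 0.969) and Cxcl16 had Prune2, Plxna1 and Tmbim1 (0.992 to 0.985). Cxcr2 had Lrrc27, Slfn4 and Glrx (0.992 to 0.986) and Cxcr4 had Znrf1, Elf2 and Heca (0.977 to 0.975). Among the members themselves, Cxcl1 with Cxcl3 (0.901) and Cxcl2 with Cxcl3 (0.875) were the most alike, and Cxcl16 with Cxcr2 had the most negative value (−0.672).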

How the data were processed

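Bulk SMART-Seq Stranded RNA-seq of 4 sorted myeloid populations on days 1 and 14 was analysed (16 libraries, 2 per group). According to the methods, the authors removed adapters (Cutadapt), mapped paired-end reads to mm10 (STAR) and deposited raw counts per gene over Gencode exons, without normalization. Whether the counting used strand is not given in the sources used here. The smallest total of a listed gene was 17 counts. Genes with a group mean of at least 3 CPM in at least 1 of 8 groups were kept, and printed CPM are scaled by TMM factors. edgeR 4.0.16 (R 4.3.3) fitted one quasi-likelihood model with a mean per group and no covariate. A call needed an adjusted p (Benjamini-Hochberg) below 0.05 and a log2 fold change of 1 or more in size. The standard error is the size of the log2 fold change divided by the square root of F. Alternatives included DESeq2 1.42.0. The steps were tested on simulated data.

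The members, gene lists and tests were chosen with earlier results of these data known. Named genes were the 8 members, the other CXC genes, up to 4 genes of the processing list per comparison by size of change, and the 3 genes most similar to each member, of which 1 is not reported here. The methods count fewer mice than separate pools for all 16 libraries would need, so that populations of a sort are likely to share mice, but no source states that a replicate number marks a pool. Within each day the deviations of same-numbered libraries correlated between 0.0132 and 0.144 over genes, and the numbers were not taken as pairs. Replicates are pools, and p-values measure the spread between them. Group levels with 0 counts were set against 3 counts per library, and the limits and intervals cover counting error only. Exon lengths came from a Gencode release of the same genome that is older than the one the authors counted with. No amino acid sequences were used here.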

Additional observations from a re-analysis of the deposited data

Results flagged for a closer look

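Changes over time that differed from those of CD9+ macrophages by the interaction term of the edgeR model are listed here, each as the log2 difference between the changes. For Cxcl3 it was −4.42 ± 1.00 in CX3CR1+ macrophages (adjusted p = 0.0253) and −3.56 ± 0.59 in neutrophils (adjusted p = 0.00139). For Cxcl2 it was −1.86 ± 0.45 in neutrophils (adjusted p = 0.0152), and for Cxcl16 −3.22 ± 0.53 in neutrophils (adjusted p = 0.00124). The calls of Cxcl3 in CX3CR1+ macrophages and of Cxcl2 in neutrophils were each lost in some alternative fits, as given above. Those of Cxcl3 and Cxcl16 in neutrophils held in every fit run. Cxcl9 passed the filter only through macrophages of day 14, which in part set the direction of its difference. For Cxcl9 in F4/80- cells the fitted value was −11.16 ± 2.35 (adjusted p = 0.0262), which rests on 0 counts in both CD9+ libraries of day 1 and on at most 26 counts in the F4/80- libraries, so that its size is not a measured fold. That call was lost when only the compared libraries were fitted (adjusted p = 0.0831), without F4/80- replicate 2 of day 1 (adjusted p = 0.183), without either F4/80- library of day 14 (adjusted p = 0.0653 and 0.0879) and without either CD9+ library of day 14 (adjusted p = 0.074 and 0.0576). The 5 results share the CD9+ libraries, and groups of 2 libraries allowed no test for a library that stands apart.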

How the results depend on the processing

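Of 152 differences of the members, 92 were called and 70 were called under every alternative run, among them the falls of Cxcl2 and Cxcl3 in all 4 populations, and no called difference reversed. With DESeq2, 2, 2 and 6 members differed in their change from CD9+ macrophages in CX3CR1+ macrophages, F4/80- cells and neutrophils, against 1, 1 and 3. With libraries scaled by size only, which moved the median log2 change of all genes in CD9+ macrophages from 0.004 to 0.196, the counts were 2 in CX3CR1+ macrophages and 6 in neutrophils, Cxcl16 in CD9+ macrophages turned to 0.10 and the difference in change of Cxcr4 between CX3CR1+ and CD9+ macrophages to −0.080. With only the compared libraries, 0 members differed in F4/80- cells. Whether same-numbered libraries share a pool of mice is not stated. With a replicate block within each day the counts were 2 in CX3CR1+ macrophages and 3 in F4/80- cells, the Cxcl1 difference of CD9+ macrophages from neutrophils on day 1 was called (1.07, adjusted p = 0.0147), and the Cxcl10 difference of CD9+ macrophages from F4/80- cells on day 14 was not (1.46, adjusted p = 0.0712). The cause of these shifts was not tested.

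Leaving out 1 library at a time, members called ranged from 2 to 4 for the change in F4/80- cells, 1 to 4 for CD9+ against CX3CR1+ macrophages on day 1 and 4 to 7 for CD9+ macrophages against F4/80- cells on day 14. For the differences in change from CD9+ macrophages they ranged from 0 to 3 in CX3CR1+ macrophages, 0 to 2 in F4/80- cells and 2 to 5 in neutrophils. Uncalled log2 changes that turned ran from −0.55 to 0.28 (Cxcl16) and −1.82 to 0.042 (Cxcr2) in CD9+ macrophages, −0.44 to 0.11 (Cxcl10) in CX3CR1+ macrophages, and −6.29 to 0.43 (Cxcl9) and −0.83 to 0.065 (Cxcl10) in F4/80- cells. The difference in Cxcl9 between macrophages on day 14 ran from −0.28 to 0.58, and that in the change of Cxcr2 from −1.70 to 0.17 in F4/80- cells and −0.79 to 1.11 in neutrophils. Over all genes, 988 were called over time in CD9+ macrophages, against 1734 without replicate 1 of day 1, 571 without replicate 1 of day 14, 330 with only those libraries and 2124 with no fold threshold.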

Other observations

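On day 1, replicate 2 was above replicate 1 for Cxcl1, Cxcl2 and Cxcl3 in all 4 populations, by 0.55 to 1.55 on the log2 scale. Of the 11998 genes tested, 8.5% were higher in replicate 2 in all 4 populations on day 1 and 9.43% were lower, against 8.04% and 7.9% on day 14. Populations sorted from one pool share mice, and whether replicate numbers mark the pools is not stated in the sources used here.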
